A study of Glycine max with 12 samples.

Results

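The comparison described here is that of the Harosoy defective (HD) with the Harosoy standard (HS) soybean seed coat when seeds weighed 100–200 mg, 2 of the 12 RNA-Seq libraries of the series. Both libraries give RPKM (read counts divided by the length of the gene model and by the mapped reads of the library) for 78773 Glyma gene models. A block of 53 neighbouring models on chromosome 13 was left out, which leaves 78720. The HD isoline carries the genotype I r t with Def, a working name for the unknown gene or genes behind the trait, and has yellow seeds with a defective, net-patterned coat. The HS isoline carries I r t without Def and has yellow seeds with an intact coat. The Def trait came from plant introduction lines and was moved into Harosoy by backcrossing, and each side of the comparison is a single isoline. The series holds the same contrast at 50–100 mg and 400–500 mg, and at all 3 stages in isolines of the black-seeded cultivar Clark (genotype i R T, with and without Def). Seeds were pooled and sorted by fresh weight, so each library is 1 pool of dissected seed coats, and none of the differences between HD and HS has a replicate check.

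The seed coat is maternal tissue that encloses the embryo. Its strength rests on the walls of its cell layers, among them the palisade and hourglass cells. Plant cell walls in general are built from cellulose, hemicelluloses and pectins together with structural proteins such as proline-rich, glycine-rich and arabinogalactan proteins. As the coat matures, cell division and wall loosening give way to wall thickening and cross-linking.

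Whole alignments behind the values were recovered from the steps of the low RPKM values. The HD library held about 62340000 alignments to the gene models and the HS library about 67746000, and the 12 libraries ran from 47502000 to 113029000. For the median gene model, 1174 bases long, 5 RPKM stands for 366 alignments in HD and 398 in HS. Counting intervals (95%, exact binomial) given below cover counting error only. Because a read could be placed on up to 25 models, alignments are not independent reads, and copies of a gene family may share them.

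Among models with at least 5 RPKM in either library, 25224 in all, 1461 were at least 2-fold higher in HD (5.79%) and 2147 were at least 2-fold lower (8.51%). Counted as 1 model per locus, 1251 of 19201 loci were higher and 1811 lower. The numbers past 4-fold were 415 higher (1.65%) and 847 lower (3.36%), past 10-fold 150 higher (0.595%) and 285 lower (1.13%), and past 100-fold they were 17 higher (0.0674%) and 35 lower (0.139%). The median HD to HS ratio was 0.960 over the 20564 models with at least 5 RPKM in both libraries. The 1461 higher models together held 18.7% of the summed RPKM in HD, against 4.43% in HS. The 2147 lower models held 4.47% in HD, against 15.4% in HS. Near the threshold, 252 models had a ratio of 2 to 2.2 and 386 a ratio of 1.8 to 2, and on the lower side 315 models were 2- to 2.2-fold lower and 471 were 1.8- to 2-fold lower. In whole seed coats, fewer cells of a type and less RNA per cell cannot be told apart.

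**Figure D1:**
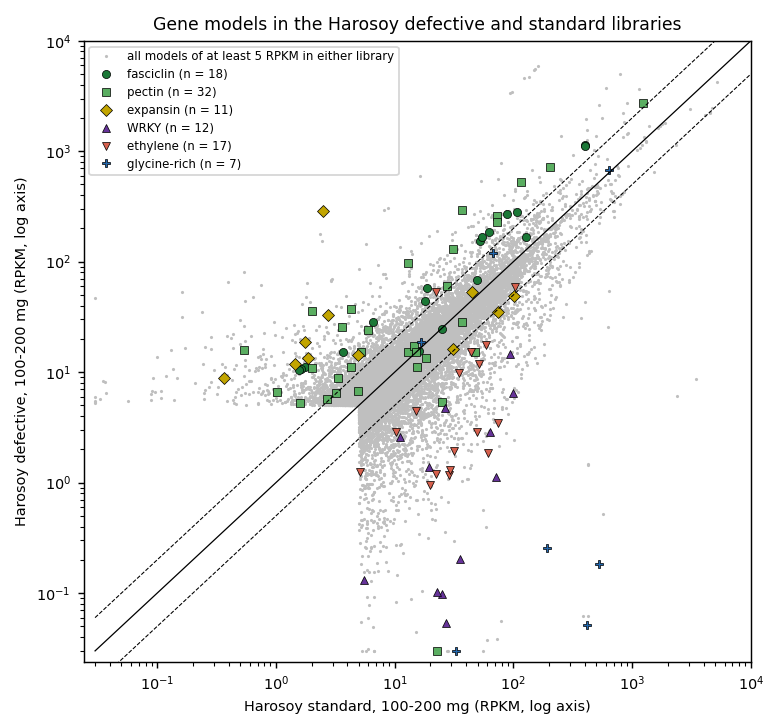
RPKM of 25224 gene models in the HD library (vertical log axis) and the HS library (horizontal log axis), with members of 6 annotation lists marked; the solid line marks equal values, the dashed lines mark 2-fold, and values under 0.03 RPKM are drawn at 0.03. Most fasciclin, pectin and expansin models lie above the upper dashed line, whereas all 12 WRKY models lie below the lower one.

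Annotations were at hand for 2060 models. They come from the tables of models that the study selected, in part on this very pair, so the gene family lists built from them are not independent evidence of direction. The lists number 26. Of the 1511 annotated models with at least 5 RPKM in HD or HS, 444 were higher (29.4%) and 578 lower (38.3%). The counts of each list given below stand against these shares, not against the 5.79% and 8.51% of all models. Of the 1093 selected only from other pairs of libraries, 200 were higher (18.3%) and 406 lower (37.1%). This subset leaves out the models that the study called on this pair, so large changes between HD and HS are removed by construction. It is therefore no independent check of direction either, here or in the lists below. In 5 of the 26 lists the median log2 ratio of the members selected only from other pairs had the opposite sign to that of the whole list. It was 0.09 over 5 glycine-rich models (0 higher, 2 lower), -0.95 over 4 expansins (0 higher, 2 lower), -0.23 over 15 lignin-related models (1 higher, 2 lower), -2.36 over 3 cysteine-rich and defensin models (0 higher, 3 lower) and 0.78 over 9 storage and maturation models (3 higher, 2 lower). The plot of log2 ratios by list gives every member.

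**Figure D2:**
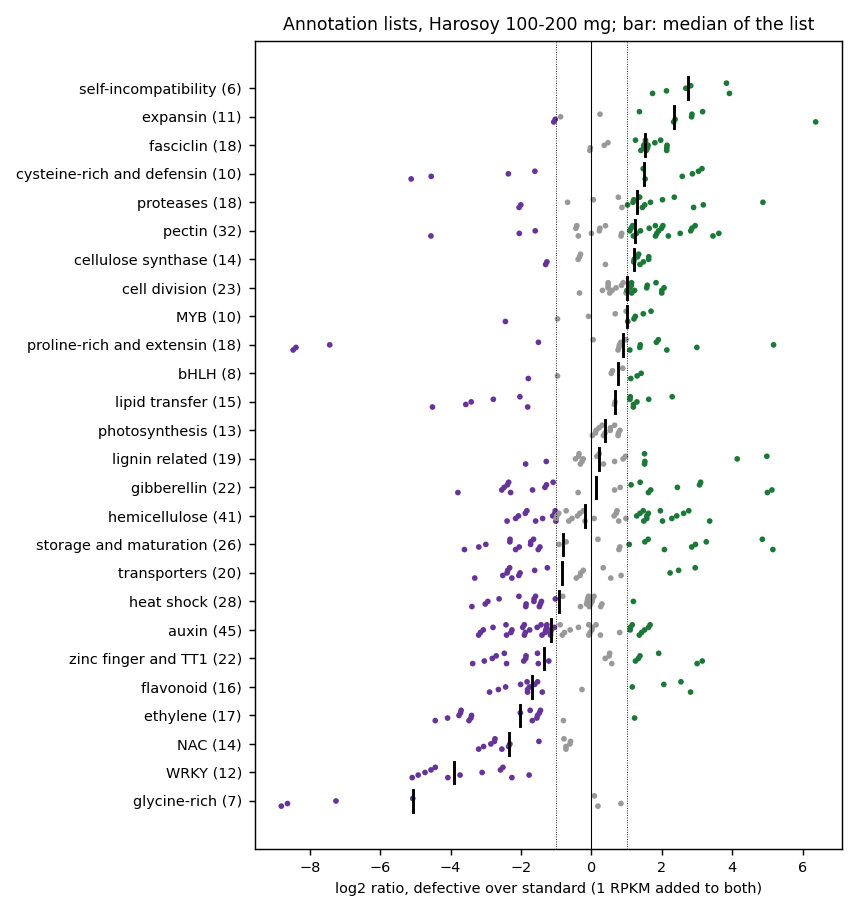
Log2 ratio of HD over HS, after adding 1 RPKM to both, for each member with at least 5 RPKM in either library of 26 annotation lists (number of such members in brackets). Green points lie at or above 1, purple points at or below -1, and the black bar is the median of the list, which runs from 2.75 for self-incompatibility proteins to -5.07 for glycine-rich proteins, against -0.06 over all 25224 models.

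The proline-rich proteins of the cell wall differed in both directions and gave the largest RPKM differences of the comparison. PRP1 (Glyma09g12200.1, chromosome 9) had 5890 RPKM in HD, the highest value of that library, against 162 RPKM in HS, a 36.3-fold difference (counting interval 35.7 to 36.9). All 7 splice models of the PRP1 locus lay between 3373 and 5890 RPKM in HD and between 93.9 and 162 RPKM in HS. PRP2 (Glyma09g12260.1), its neighbour on chromosome 9, went the other way, with 8.68 RPKM in HD against 3438 RPKM in HS (396-fold lower, 370 to 424). Glyma09g12250.1, next to PRP2, had 6.05 RPKM in HD and 2369 RPKM in HS, and Glyma15g23830.1 had 1.45 RPKM in HD and 423 RPKM in HS. These models are close relatives with repeated motifs, and reads could be shared among them. In the neighbouring stages PRP1 had 9137 RPKM in HD and 8714 RPKM in HS at 50–100 mg and 43.1 RPKM in HD and 29.3 RPKM in HS at 400–500 mg. PRP2 had 4.12 RPKM in HD and 10.2 RPKM in HS at 50–100 mg and 1313 RPKM in HD and 3221 RPKM in HS at 400–500 mg. At 100–200 mg the HD library was closer than the HS library to the 50–100 mg values of both genes. Both were named for their large difference between HD and HS, so nothing about stage is drawn from this.

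Of 21 annotated proline-rich and extensin models, 18 reached 5 RPKM, of which 9 were higher in HD and 4 lower, with a median log2 ratio of 0.91. The hydroproline-rich neighbours Glyma11g21610.1 and Glyma11g21620.1 had 1557 and 1990 RPKM in HD, against 416 and 553 RPKM in HS. PRP4 (Glyma04g00710.1) had 459 RPKM in HD and 103 RPKM in HS. Glyma15g23790.1, annotated after an Arabidopsis proline-rich protein, had 117.5 RPKM in HD and 13.9 RPKM in HS, and at 50–100 mg it was at 0 in HD and 0.0142 RPKM in HS.

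Several glycine-rich wall proteins were almost undetected in HD. Glyma02g42630.1 had 0.185 RPKM in HD (6 alignments) and 530 RPKM in HS (18679 alignments), Glyma07g28610.1 had 0.0512 RPKM in HD and 416 RPKM in HS, and Glyma14g05760.1 had 0.258 RPKM in HD and 191 RPKM in HS. Glycine-rich protein 1 (Glyma20g01430.1) had no alignment in HD and 1234 in HS, so it was at least 379-fold lower against a floor of 3 alignments. All 4 were abundant in both isolines at 400–500 mg, where Glyma07g28610.1, for example, had 6262 RPKM in HD and 3014 RPKM in HS. Of the 12 annotated glycine-rich models 7 reached 5 RPKM, 4 of them lower in HD and none higher. The most abundant, Glyma02g42610.1, had 674 RPKM in HD and 635 RPKM in HS. The 5 members that stayed under 5 RPKM in the pair turn the median of the list to 0.08 when no minimum is applied.

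Fasciclin-like arabinogalactan proteins, which are cell surface glycoproteins of walls under construction, were higher in HD. Of 19 annotated models 18 reached 5 RPKM, with 14 higher, none lower and a median log2 ratio of 1.54. Glyma02g47790.1 had 1130 RPKM in HD against 404 RPKM in HS, and Glyma12g07430.1 had 11.3 RPKM in HD against 1.77 RPKM in HS. At the other end Glyma08g44210.1 had 24.4 RPKM in HD and 25.2 RPKM in HS. For 16 of the 18 the HD value was the highest of all 12 libraries, against 8.99% of models tested and 35.8% of higher ones. The study had selected 13 of the 18 on this very pair, which raises this count. Of the 5 members that the study had selected only from other pairs, 1 was higher and none lower.

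Genes of wall polysaccharides followed in part. Of 14 cellulose synthase models 8 were higher in HD and 2 lower (median log2 ratio 1.21). Of the 6 selected only from other pairs, 2 were higher and none lower (median 0.04). Glyma09g05630.1, annotated as a catalytic subunit of cellulose synthase, had 163 RPKM in HD and 62.0 RPKM in HS. Of 38 pectin-related models 32 reached 5 RPKM, with 22 higher and 3 lower (median 1.24). The pectin acetylesterase Glyma16g17150.1, whose product removes acetyl groups from pectin, had 2708 RPKM in HD and 1242 RPKM in HS, and the pectinesterase Glyma06g47200.1 had 35.8 RPKM in HD and 2.0 RPKM in HS. In the opposite direction the pectinesterase precursor Glyma19g22790.1 had no alignment in HD and 2602 in HS (22.6 RPKM), at least 798-fold lower. Hemicellulose-related models were split, with 15 higher and 13 lower of the 41 that reached 5 RPKM (50 annotated, median -0.18). The endo-xylanase Glyma11g11200.1 had 10.6 RPKM in HD and 0.135 RPKM in HS, whereas the xyloglucan endotransglycosylase Glyma13g01150.1, an enzyme that cuts and rejoins xyloglucan, had 27.1 RPKM in HD and 124 RPKM in HS. A run of 5 neighbouring loci around it (Glyma13g01110.1 to Glyma13g01150.1) was lower in HD throughout.

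Expansins, which loosen walls during cell growth, included the model with the highest log2 ratio after adding 1 RPKM. The expansin-A1 model Glyma03g04390.1 had 288 RPKM in HD and 2.50 RPKM in HS (115.3-fold, 98.1 to 136). It had 289 RPKM in HD and 215 RPKM in HS at 50–100 mg, and 0.506 RPKM in HD and 0.369 RPKM in HS at 400–500 mg. Of 13 annotated expansins 11 reached 5 RPKM, with 7 higher and 2 lower (median 2.34), but none of the 4 selected only from other pairs was higher. The 2 lower ones were the expansin-B model Glyma10g24120.1, with 35.0 RPKM in HD and 74.6 RPKM in HS, and the expansin-like model Glyma11g10240.1, with 49.1 RPKM in HD and 101 RPKM in HS.

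**Figure D3:**
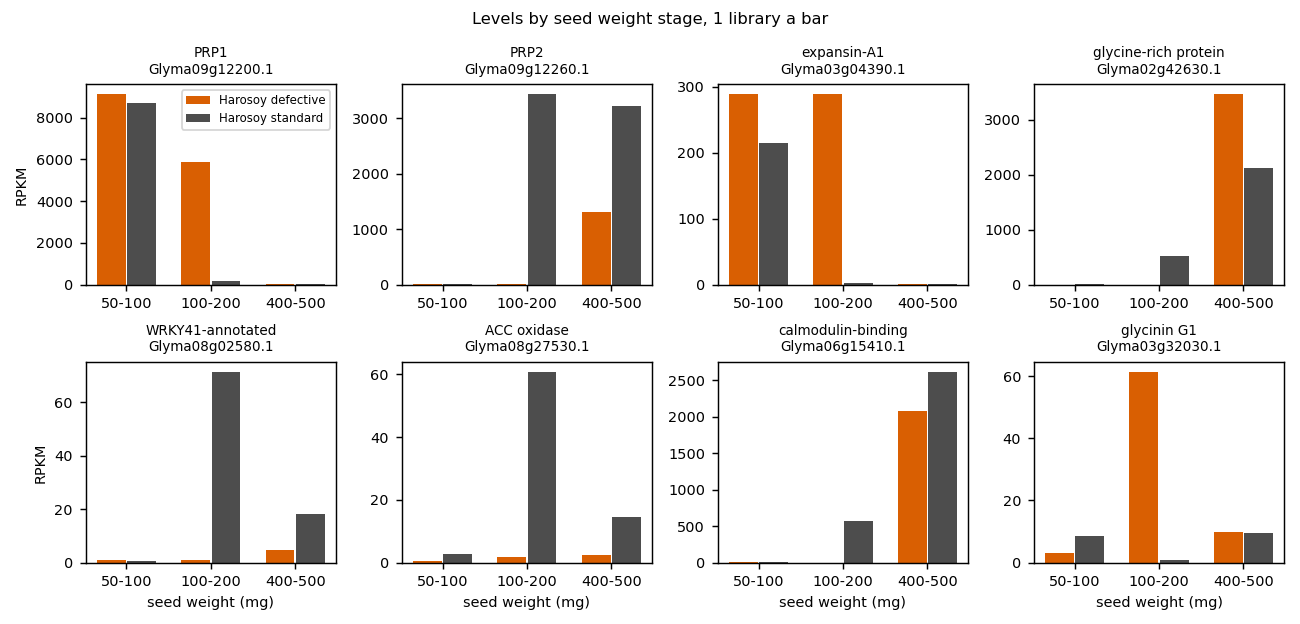
RPKM of 8 gene models (bars from 0, 1 library a bar, no error) in HD and HS seed coats at the 3 seed weight stages. At 100–200 mg PRP1 and expansin-A1 had 5890 and 288 RPKM in HD, against 162 and 2.50 RPKM in HS, whereas PRP2, with 8.68 RPKM in HD and 3438 RPKM in HS, was high in HD only at 400–500 mg.

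Lignin-related genes and peroxidases, which cross-link phenolic polymers in the wall, differed less. Of 23 annotated models 19 reached 5 RPKM, and 5 were higher, 2 lower and 12 within 2-fold. The abundant Peroxidase 42 models Glyma17g01720.1 and Glyma07g39020.1 had 4189 and 2399 RPKM in HD, against 5211 and 3062 RPKM in HS. Dirigent-like proteins, which steer the coupling of lignan and lignin precursors, gave the 2 largest log2 ratios of the list. Glyma12g10390.1 had 308 RPKM in HD and 8.77 RPKM in HS (35.1-fold, 31.9 to 38.7), and Glyma06g46390.1 had 26.2 RPKM in HD and 0.543 RPKM in HS.

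Proteases were mostly higher, with 12 of 18 higher and 2 lower (19 annotated, median 1.29). The subtilisin-like protease Glyma06g02500.1 had 3635 RPKM in HD and 1136 RPKM in HS, one of the 5 largest gains in RPKM, and another, Glyma04g02460.2, had 556 RPKM in HD and 73.5 RPKM in HS. The gamma vacuolar processing enzyme Glyma16g07190.1 had 8.37 RPKM in HD (665 alignments) and 0.0347 RPKM in HS (3 alignments), a ratio of 241 (82.1 to 1171). Self-incompatibility protein homologues, small secreted proteins first known from pollen recognition, were higher in all 6 models that reached 5 RPKM (of 8 annotated). The study had selected 5 of these 6 on this very pair. Glyma08g46780.1 and its neighbour Glyma08g46790.1 had 20.4 and 16.9 RPKM in HD, against 0.417 and 0.255 RPKM in HS.

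Small defence proteins moved in both directions. Of 15 annotated cysteine-rich and defensin models 10 reached 5 RPKM, 6 higher and 4 lower. The LCR19 model Glyma09g06550.1 had 78.1 RPKM in HD and 7.97 RPKM in HS. The defensin-like model Glyma05g33200.1 had 25.5 RPKM in HD and 621 RPKM in HS, and Glyma13g35320.1, also defensin-like, had no alignment in HD and 33.8 RPKM in HS, at least 409-fold lower. The endochitinase Glyma02g04820.1, an enzyme that degrades fungal walls, had 0.0554 RPKM in HD and 79.0 RPKM in HS. Lipid transfer proteins gave 7 higher and 6 lower of 15 (21 annotated). The abundant members Glyma01g32750.1 and Glyma02g45050.1 had 1825 and 1018 RPKM in HD, against 848 and 476 RPKM in HS. Glyma10g39170.1 had 2.83 RPKM in HD and 86.6 RPKM in HS.

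Among hormone-related genes, the ethylene list was largely lower in HD, more auxin-related models were lower than higher, and the gibberellin list was split. Of 26 annotated ethylene models 17 reached 5 RPKM, with 15 lower and 1 higher (median log2 ratio -2.02). The higher one was the response factor Glyma07g37410.1, with 53.1 RPKM in HD and 22.1 RPKM in HS. The 1-aminocyclopropane-1-carboxylate oxidases, which make ethylene, were among the lowest. Glyma08g27530.1 had 1.86 RPKM in HD and 60.8 RPKM in HS (32.8-fold lower, 22.0 to 50.9), and Glyma02g43560.1 had 3.45 RPKM in HD and 74.6 RPKM in HS (21.6-fold lower, 19.2 to 24.5). In the Clark pair the same oxidases had 28.8 and 32.9 RPKM in the defective and 24.9 and 29.2 RPKM in the standard library. Auxin-related models gave 24 lower and 8 higher of 45 (58 annotated, median -1.14). Glyma05g21680.1, an indole-3-acetic acid-amido synthetase that conjugates auxin, had 0.273 RPKM in HD and 10.3 RPKM in HS. The abundant dormancy and auxin associated model Glyma13g31060.1 had 330 RPKM in HD and 795 RPKM in HS. Gibberellin-related models were split, with 9 higher and 10 lower of 22 (27 annotated). The 2 highest were Glyma04g02660.1, with 600 RPKM in HD and 16.2 RPKM in HS, and Glyma06g02690.1, with 291 RPKM in HD and 8.14 RPKM in HS. The gibberellin-regulated model Glyma20g26730.1 had 4.84 RPKM in HD and 79.9 RPKM in HS.

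Among transcription factors, every annotated WRKY model that reached 5 RPKM was lower in HD (12 of 12, 14 annotated, median log2 ratio -3.90). The study had selected 5 of the 12 on this very pair, and the other 7 were lower too. WRKY genes without an annotation were not examined. WRKY factors are plant regulators best known from defence and senescence. The WRKY41-annotated models Glyma08g02580.1 and Glyma01g43420.1 had 1.13 and 0.203 RPKM in HD, against 71.5 and 35.4 RPKM in HS. Glyma02g39870.1, annotated as WRKY33, had 6.48 RPKM in HD and 98.4 RPKM in HS (15.2-fold lower, 14.2 to 16.3). For 11 of the 12 the HS value was the highest of all 12 libraries, against 12.5% of models tested and 52.8% of lower ones. Glyma08g02580.1, for example, had 0.596 RPKM in the HS library at 50–100 mg and 18 RPKM in that at 400–500 mg, and 3.45 RPKM in the Clark defective and 5.51 RPKM in the Clark standard library at 100–200 mg. For all 12 the HD value was closer than the HS value to both Harosoy libraries of 50–100 mg. The high HS values alone make this likely, so nothing about stage is drawn from it. NAC factors were lower in 9 of 14 and higher in none (16 annotated, median -2.34). Of the 9 NAC models selected only from other pairs, 4 were lower and none higher (median -0.78). Glyma13g35550.1, annotated as a NAC domain protein, had 13.9 RPKM in HD and 124 RPKM in HS. Zinc finger models gave 12 lower and 6 higher of 22 (24 annotated), of which the salt tolerance zinc finger model Glyma20g26940.1 had 41.8 RPKM in HD and 278 RPKM in HS. The 2 Transparent Testa 1 models, homologues of an Arabidopsis regulator of seed coat pigmentation, were among the higher ones. Glyma14g35140.1 had 14.7 RPKM in HD and 0.776 RPKM in HS, and Glyma13g01720.1 had 13 RPKM in HD and 0.752 RPKM in HS. MYB models gave 6 higher and 2 lower of 10 (15 annotated, median 1.01, which turns to -0.08 with a minimum of 1 RPKM), with Glyma03g38660.1 at 66.9 RPKM in HD and 27.6 RPKM in HS. The bHLH models gave 4 higher and 2 lower of 8 (13 annotated).

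Flavonoid genes were lower in 11 of 16 models and higher in 4 (37 annotated, median -1.69). The dihydroflavonol reductase model Glyma19g00990.1 had 0.778 RPKM in HD and 12.2 RPKM in HS. The isoflavone reductase model Glyma01g37840.1, the most abundant member, had 346 RPKM in HD and 154 RPKM in HS. Heat shock proteins and chaperones were lower in 14 of 28 and higher in 1 (32 annotated, median -0.92), against 38.3% lower over annotated models. Of the 19 members selected only from other pairs, only 5 were lower (median -0.11), against 37.1% of all models so selected. Glyma09g24410.1, a member of the HSP90 family, had 2.54 RPKM in HD and 36.2 RPKM in HS. The abundant Hsp70 model Glyma05g36620.1 had 92.8 RPKM in HD and 98.3 RPKM in HS. Transporters gave 10 lower and 3 higher of 20 (34 annotated), with the amino acid permease Glyma04g38640.1 at 2.51 RPKM in HD and 33.9 RPKM in HS. Of the 11 transporters selected only from other pairs, 3 were lower and 1 higher (median -0.30). Cell division and cytoskeleton models were higher in 13 of 23 and lower in none (26 annotated, median 1.01). Among them were the alpha tubulin model Glyma06g09500.1, with 416 RPKM in HD and 189 RPKM in HS, and the cyclin-dependent kinase model Glyma17g38210.1, with 6.28 RPKM in HD and 0.742 RPKM in HS. Of the 18 members selected only from other pairs, 8 were higher and none lower.

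Markers of photosynthesis and of the embryo, from which the coat is dissected, were examined as well. None of the 13 photosynthesis models with at least 5 RPKM (16 annotated) passed 2-fold, and their summed level was 813 RPKM in HD and 572 RPKM in HS. The study had selected all 13 only from other pairs, and photosynthesis genes without an annotation were not examined. Storage and maturation genes, typical of the cotyledon, were mixed, with 9 of 26 higher and 13 lower (27 annotated), and their summed level was 1594 RPKM in HD and 1673 RPKM in HS. No member was at 0 in either library. The 11S globulins glycinin G1 (Glyma03g32030.1) and G2 (Glyma03g32020.1) had 61.5 and 34.8 RPKM in HD, against 0.756 and 0.240 RPKM in HS, and HD was the highest of the 12 libraries for both. Glyma13g36400.1, annotated as a 2S albumin or seed storage protein, and Glyma12g34160.1, annotated as a 2S albumin in one table of the study and as a glycinin subunit in another, had 42.8 and 12.1 RPKM in HD, against 401 and 158 RPKM in HS. The beta-conglycinin alpha chain models also disagreed, with Glyma10g39150.1 at 90.4 RPKM in HD and 301 RPKM in HS, and Glyma20g28660.1 at 106 RPKM in HD and 61.3 RPKM in HS. The part of embryo RNA in these differences was not tested.

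Other models named by size of change had varied annotations. Glyma13g27050.1, of unknown function, had 46.7 RPKM in HD (3566 alignments) and 0.0120 RPKM in HS (1 alignment), a ratio of 3875 (695 to 153104). The calmodulin-binding model Glyma06g15410.1 had 0.516 RPKM in HD and 570 RPKM in HS (1104-fold lower, 769 to 1649). The strictosidine synthase family models Glyma17g09110.1 and Glyma05g07630.1 had 177 and 154 RPKM in HD, against 2.33 and 2.45 RPKM in HS. Models annotated after Ruptured Pollen Grain 1, an Arabidopsis sugar transporter of anthers, were high as well, with Glyma08g08200.1 at 63.9 RPKM in HD and 1.81 RPKM in HS and Glyma05g25180.1 at 48.4 RPKM in HD and 0.637 RPKM in HS. The main text of the study names both as a senescence-associated protein instead. The cytochrome P450 model Glyma09g41940.1 had 47.4 RPKM in HD and 1.8 RPKM in HS. Several changes lay in runs of neighbouring loci. After a locus that was higher in HD, the next locus with at least 5 RPKM was also higher in 172 of 1247 cases (13.8%, against 6.52% of all loci), and after a lower one it was lower in 335 of 1807 cases (18.5%, against 9.44%). A run of 7 higher loci on chromosome 14 (Glyma14g03660.1 to Glyma14g03730.1) spanned 229 to 5023 RPKM in HD and 90.0 to 911 RPKM in HS. It holds models annotated as COPII (vesicle) coat assembly, formin-like, lipid binding, lipid transfer and unknown proteins. Its member Glyma14g03680.1 had 5023 RPKM in HD and 798 RPKM in HS. The adjacent unknown models Glyma11g27300.1, Glyma11g27310.1 and Glyma11g27320.1 had 53.3, 65.0 and 79.9 RPKM in HD, against 0.162, 0.394 and 0.537 RPKM in HS. On the lower side, 5 neighbouring loci with 3 Harpin-induced protein annotations (Glyma03g35950.1 to Glyma03g35990.1) spanned 1.05 to 9.65 RPKM in HD and 18.9 to 115.01 RPKM in HS, and 7 loci, 3 of them annotated as the receptor kinase Feronia, (Glyma13g06490.1 to Glyma13g06630.1) spanned 2.16 to 9.70 RPKM in HD and 13.9 to 52.7 RPKM in HS. Tandem copies can share reads, so the loci of a run are not independent.

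To relate the pair to seed coat development, models were sorted by the HS libraries of the other stages alone. With at least 5 RPKM at 50–100 mg or 400–500 mg, 1551 models were at least 4-fold higher at 50–100 mg (early, after adding 1 RPKM) and 710 were at least 4-fold higher at 400–500 mg (late). Of the early models, 776 were at least 2-fold higher in HD than in HS at 100–200 mg (50.0%) and 20 were lower (1.29%), with a median log2 ratio of 1.0. Of the late models, 9 were higher (1.27%) and 433 lower (61%), with a median of -1.34. Over all 25980 models so selected, 4.55% were higher and 5.8% lower. The median early model had 13 RPKM in HD and 5.52 RPKM in HS at 100–200 mg, and the median late model had 4.26 RPKM in HD and 15.7 RPKM in HS. With classes taken from the Clark standard libraries, 776 of 1600 early models were higher (48.5%) and 8 lower, and 696 of 1331 late models were lower (52.3%) and 15 higher, against 4.55% and 6.52% of 26648 models. The libraries of the other stages came from another sequencer with reads of 100 bases, against 75 bases at 100–200 mg, and HD and HS share the shorter read length. Seeds were staged by weight, and whether HD and HS seeds of 100–200 mg were of the same age was not tested.

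**Figure D4:**
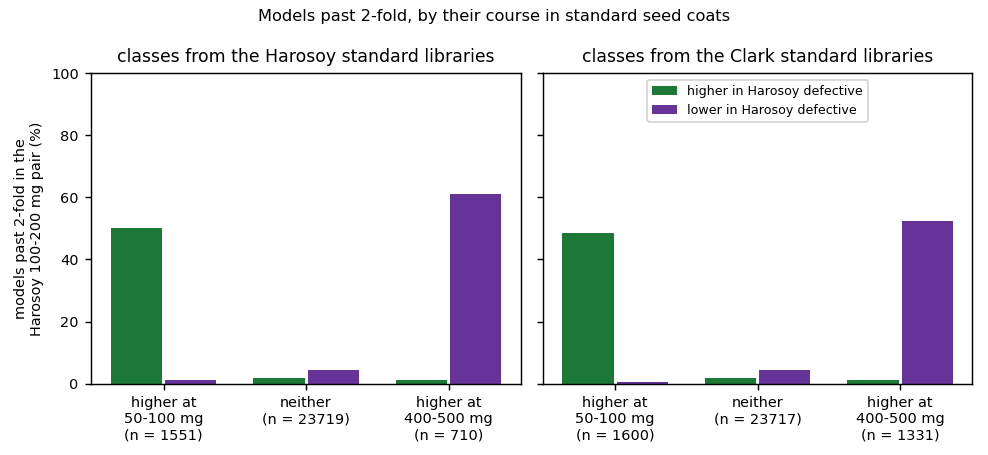
Percentage of models at least 2-fold higher (green) or lower (purple) in HD than in HS at 100–200 mg, after adding 1 RPKM, among models classed by their standard 50–100 mg and 400–500 mg libraries of Harosoy (left) and Clark (right). In both panels the early class was mostly higher or within 2-fold and the late class mostly lower, 50.0% and 61% in Harosoy and 48.5% and 52.3% in Clark.

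Not all lower models were late ones. Of the 2147 lower models, 388 were late by the HS libraries (18.1%, against 2.24% of the 25224 tested), 20 were early and 1739 were neither. Of the 1461 higher models, 762 were early (52.2%, against 5.02% of those tested) and 11 late. The HS value was the highest of the 12 libraries for 1134 of the 2147 lower models (52.8%, against 12.5% of those tested). The HD value was the highest for 523 of the 1461 higher models (35.8%, against 8.99%). Choosing models by the HD and HS libraries raises both shares. The median lower model had 17.6 RPKM in HS and 4.38 RPKM in HD, against 7.22 RPKM in Clark standard at 100–200 mg. With 1 HS library, isoline and pool cannot be told apart.

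The same contrast was much smaller in Harosoy at 50–100 mg, where 21 of 23746 models were higher in the defective library (0.0884%) and 65 lower (0.274%). At 400–500 mg, 1117 of 23404 models were higher (4.77%) and 1093 lower (4.67%). Of the 1461 models higher at 100–200 mg, 4 were higher and 12 lower at 50–100 mg, and 51 were higher and 80 lower at 400–500 mg. Of the 2147 models lower at 100–200 mg, 4 were higher and 30 lower at 50–100 mg, and 180 were higher and 464 lower at 400–500 mg. Over all 25224 models tested at 100–200 mg, 0.0753% were higher and 0.202% lower at 50–100 mg. At 400–500 mg 2.06% of them were higher and 4.16% lower. PRP2 was lower in HD at 400–500 mg as well, whereas the glycine-rich model Glyma02g42630.1 had 3467 RPKM in HD and 2127 RPKM in HS there.

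The Clark pair of the stage shares no library with the Harosoy pair. It had 736 of 24227 models higher in the defective library (3.04%) and 385 lower (1.59%). Of the 1461 models higher in HD, 288 were higher in Clark defective too (19.7%) and 12 were lower. These 288 were 39.1% of the 736 models higher in Clark defective. Of the 2147 models lower in HD, 193 were lower in Clark defective too (8.99%) and 28 were higher, and these 193 were 50.1% of the 385. Over all 25224 models, 2.48% were higher and 1.27% lower in Clark defective. The median Clark log2 ratio was 0.45 for the models higher in HD and -0.24 for those lower in HD, against -0.01 over all 25224 models. Across these models the 2 log2 ratios had a Pearson r of 0.39 and a Spearman rho of 0.30, given as a description, since genes are not independent. PRP1 had 6181 RPKM in Clark defective and 874 RPKM in Clark standard, and PRP2 (Glyma09g12260.1) had 174 RPKM in Clark defective and 809 RPKM in Clark standard. The expansin Glyma03g04390.1 had 479 RPKM in Clark defective and 270 RPKM in Clark standard, a ratio of 1.77 in Clark, while the HD to HS ratio was 115.3. The calmodulin-binding model Glyma06g15410.1 had 22.2 RPKM in Clark defective and 181 RPKM in Clark standard. These genes were named for their Harosoy values. Among others tabulated by the study, the ADR12 model Glyma10g35870.1 differed more in Clark, with 45.2 RPKM in Clark defective and 729 RPKM in Clark standard, against 16.6 RPKM in HD and 63.8 RPKM in HS. Cultivar, seed colour genes and isoline differ together between the pairs and cannot be told apart. The column labels of Clark standard and Clark defective also carry different RNASeq tags, whereas those of HD and HS carry the same one. What these tags stand for is not stated.

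**Figure D5:**
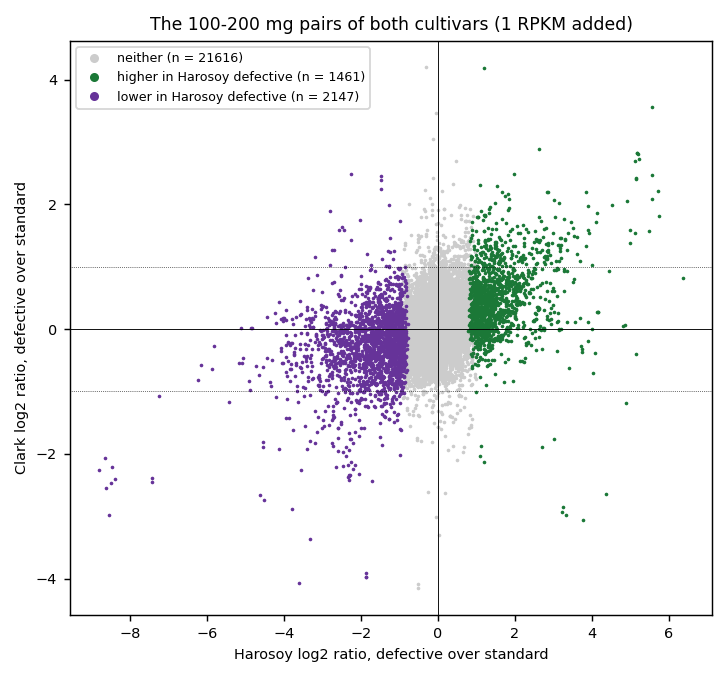
Log2 ratio of defective over standard at 100–200 mg in Harosoy (horizontal) and Clark (vertical), 1 point for each of 25224 gene models and 1 RPKM added to every value; dotted lines mark 2-fold in Clark. Models higher in HD had a median Clark log2 ratio of 0.45 and models lower in HD one of -0.24.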

How the data were processed

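Values are RPKM per Glyma gene model as deposited. Per the study's methods, the authors pooled seeds by weight, dissected the coats, sequenced 1 library per isoline and stage (reads of 75 bases at 100–200 mg), placed them on the gene models with Bowtie (version not given in the sources used here), where a read could have up to 3 mismatches and be reported at up to 25 positions, and divided by model length and mapped reads. Splice models and close copies therefore share reads. Files of 12 libraries were read by column name.

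With 1 library a side no test was run. Models with at least 5 RPKM in HD or HS and a 2-fold ratio were counted, and log2 ratios were taken after adding 1 RPKM. Whole alignments per model were recovered from the RPKM steps for 71434 models (7 expressed models gave none and 7332 were at 0 throughout), checked on simulated data. From these came exact binomial (Clopper-Pearson) 95% intervals of ratios, and a floor of 3 alignments for models without any. Gene names come from the study's supplementary tables, whose longest was available in part. The authors' own tests were not used. The 26 lists are keyword matches in those names. Models named are the 15 highest and 15 lowest in log2 ratio, the 5 largest gains and losses, the 5 most abundant per library, 2 extremes each way and the most abundant of each list, and those the study tabulated, 1 model per locus. PRP4, Glyma11g21610.1, Glyma11g21620.1, Glyma02g45050.1, Glyma10g39150.1, Glyma20g28660.1 and the runs of neighbouring loci were chosen after their values were seen. The comparison, lists and naming rules were chosen with earlier results of these data known. The sorting of models by stage was added after seeing the data. Alternatives changed the minimum, fold, scaling, pseudocount, splice models and counting interval. Python 3.11.15, numpy 2.4.6, pandas 2.3.3, scipy 1.17.1, numba 0.67.0 and matplotlib 3.10.9 were used.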

Additional observations from a re-analysis of the deposited data

Results flagged for a closer look

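Some models moved in opposite directions in the pairs compared, which could not be tested with 1 library a side. Between cultivars at 100–200 mg, 12 models were at least 2-fold higher in HD and lower in Clark defective, and 28 were lower in HD and higher in Clark defective. They were 0.821% of the models higher in HD and 1.30% of those lower in HD. Over all 25224 models, 1.27% were lower and 2.48% higher in Clark defective. Between stages of Harosoy, 12 models higher in HD at 100–200 mg were lower at 50–100 mg and 80 were lower at 400–500 mg, and of the models lower at 100–200 mg 4 were higher at 50–100 mg and 180 at 400–500 mg. Of the higher models 0.821% were lower at 50–100 mg and 5.48% at 400–500 mg, against 0.202% and 4.16% of all 25224. Of the lower models 0.186% were higher at 50–100 mg and 8.38% at 400–500 mg, against 0.0753% and 2.06%.

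In 11 models the RPKM ratios were past 4-fold in opposite directions in the cultivars, and 5 of these were annotated as protease inhibitors. The log2 ratios given here were taken after adding 1 RPKM, so some are below 2. The Bowman-Birk inhibitor model Glyma16g33400.1 had a log2 ratio of 3.77 in Harosoy and -3.07 in Clark, with 21.2 RPKM in HD and 0.620 RPKM in HS, and 2.10 RPKM in Clark defective and 25 RPKM in Clark standard. The Bowman-Birk models Glyma09g28700.1 (3.34 in Harosoy, -2.98 in Clark), Glyma09g28730.1 (3.24, -2.86) and Glyma14g26410.1 (3.23, -2.94) and the Kunitz family model Glyma08g45530.1 (4.36, -2.65) went the same way, and near-identical copies may share reads. The TFL1-like model Glyma19g37890.1 had 2.69 in Harosoy and -1.90 in Clark. In the opposite sense the asparagine synthetase models Glyma18g06840.1 (-2.80 in Harosoy, 1.90 in Clark), Glyma11g27480.1 (-2.50, 1.64) and Glyma11g27720.1 (-2.44, 1.59), and the models without annotation Glyma16g04380.1 (-2.25, 2.49) and Glyma17g36110.1 (-2.56, 1.59), were lower in HD and higher in Clark defective. These differences between cultivars were not tested.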

How the results depend on the processing

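No paired analysis was possible because each isoline and stage has 1 library and the columns carry no replicate numbers. Lowering the minimum to 1 RPKM gave 3498 models higher and 3730 lower in HD, a minimum of 10 RPKM gave 963 higher, no minimum gave 7619 and 6342, and a 3-fold threshold gave 688 and 1192. Scaling, 1 model per locus, keeping the chromosome 13 block (1461 and 2147) and requiring the counting interval past 2-fold (1193 and 1814) left both counts within 1.5 times, and over the 3 scalings they ran from 1579 to 1727 higher and from 1890 to 2003 lower. Models moving the same way in Clark numbered 753 higher and 441 lower at 1 RPKM, 112 lower at 10 RPKM, and 60 and 61 at 3-fold. The median log2 ratio of a list turned for glycine-rich proteins with no minimum (0.0785) and for MYB at 1 RPKM and with none (-0.0832 in both). With a pseudocount of 10 RPKM it moved to -2.09 for glycine-rich, 0.42 for cellulose synthase, 0.87 for expansin, 0.80 for cysteine-rich, -0.96 for NAC, -1.83 for WRKY, -0.61 for zinc finger, -0.82 for flavonoid and 1.06 for self-incompatibility. With 0.1 RPKM it moved to -8.36 for glycine-rich, -4.51 for WRKY and 5.23 for self-incompatibility. At 1 RPKM it was -2.49 for glycine-rich and -1.01 for flavonoid, with no minimum 1.36 for expansin, 0.39 for cysteine-rich and -0.33 for flavonoid, and with 1 model per locus -2.71 for ethylene. The log2 ratio of the 152 named models moved by over 1.5-fold in 44 with a pseudocount of 0.1 RPKM, in 91 with 10 RPKM and in 0 with the median scaling, under which Glyma08g44210.1 and Glyma18g08530.1, both within 2-fold, changed sign to 0.0111 and 0.0241. The cause was not tested.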

Other observations

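Further runs of at least 4 neighbouring loci, each past 2-fold in the same direction, are given here as values and were chosen after those were seen. On chromosome 16, 8 loci from Glyma16g30270.1 to Glyma16g30470.1, 3 of them annotated as disease resistance family proteins, had 1.78 to 5.83 RPKM in HD and 6.79 to 17.5 RPKM in HS, and 6 loci from Glyma16g30680.1 to Glyma16g30870.1 had 1.31 to 2.87 RPKM in HD and 5.66 to 14.3 RPKM in HS. Also on chromosome 16, 5 loci, 4 of them annotated with a heavy-metal-associated domain (Glyma16g29650.1 to Glyma16g29710.1) had 0.154 to 1.54 RPKM in HD and 5.84 to 38.7 RPKM in HS. On chromosome 4, 6 loci with 3 calcium-binding annotations (Glyma04g17650.1 to Glyma04g17710.1) had 0.396 to 24.2 RPKM in HD and 5.25 to 169.5 RPKM in HS. The longest run, 10 loci without annotation on chromosome 6 (Glyma06g40330.1 to Glyma06g40980.1), had 0.825 to 7.31 RPKM in HD and 6.64 to 33.5 RPKM in HS. Neighbouring copies may share reads.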
